A study of Mus musculus with 4 samples.

Results

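The superoxide and peroxide scavenging enzymes are 10 genes taken by symbol from the authors' deposited gene table, namely the superoxide dismutases Sod1, Sod2 and Sod3, the catalase gene Cat, the glutathione peroxidases Gpx1 and Gpx4, and the peroxiredoxins Prdx1, Prdx3, Prdx5 and Prdx6. All 10 were present among the 20909 genes of that table, each with 1 probe, and every one of these probes had a value on all 4 arrays. RNA from 4 livers of Wrn mutant mice was compared with RNA from 4 livers of wild-type mice on two-colour arrays, 1 mutant and 1 wild-type liver on each array. All mice were C57Bl/6 males aged 3 months with free access to food, under reversed lighting of 12 h on and 12 h off. Wrn encodes a RecQ DNA helicase whose human counterpart is lost in Werner syndrome. The labels say only that the Wrn protein is mutant, without naming the altered part of the gene. The mutant RNA carried Cy3 in pairs 1 and 2 and Cy5 in pairs 3 and 4.

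Superoxide leaks from the mitochondrial respiratory chain and is released by NADPH oxidases. Superoxide dismutases convert it to hydrogen peroxide, Sod1 mainly in the cytosol with copper and zinc, Sod2 in the mitochondrial matrix with manganese, and Sod3 outside the cell. Hydrogen peroxide is then split by catalase, which sits in peroxisomes and is abundant in hepatocytes. It is also reduced by glutathione peroxidases, of which Gpx1 and Gpx4 carry selenocysteine and draw on glutathione. Peroxiredoxins reduce it too, and most of them draw on thioredoxin.

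The values below are log2 ratios of mutant over wild type, so that 1 is a doubling in the mutant and 0 is no difference. No source states that direction. It is taken as likely from the order of the genotypes in the array titles and in the gene table's name, where the mutant stands first, and with wild type as numerator every sign would turn. Nor does a source state that the swapped arrays, pairs 3 and 4, had been turned to the same direction. All 4 arrays are read here as 1 direction. The authors' deposited fold change reads them so too. It equals the mean of the 4 ratios, with none turned, for 17537 of 17686 named genes with 4 values. With pairs 3 and 4 turned, the means of Sod2, Sod3, Gpx1, Prdx1 and Prdx3 change sign, to -0.17, -0.17, -0.20, 0.11 and 0.046. Of 41174 probes, between 37627 and 40104 had a value on each array. The probe for Wrn itself had log2 ratios of 1.77, 0.91, 1.12 and 1.37 in pairs 1 to 4. Because the altered part of the gene is not given, this probe is no check of the labels or of the direction. All 13 hepatocyte marker probes that were tested, Alb among them, were brighter than the median probe of the table. In whole liver, fewer cells of a type and less RNA per cell cannot be told apart.

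The promoter windows of the members give their sequence context. RefSeq windows of assembly GRCm38.p6 were found for 8 of the 10 genes, with 4 windows for Gpx4 and 1 for each of the others. The 250 bases before the annotated start were searched on both strands, and a gene counts where any of its windows holds the motif. The core of the antioxidant response element, to which NRF2 binds with small MAF proteins, was searched as TGACNNNGC. It occurred in 2 genes, Sod1 and Prdx1, and in 11.5% of the 27025 genes of the reference table. These windows are shown because they hold that motif, which stands in capitals as read on the gene's strand, where both matches are the reverse complement of the motif. The Sod1 window lies on the forward strand at chr16:90220512-90220761 and the Prdx1 window on the forward strand at chr4:116685349-116685598.
Sod1: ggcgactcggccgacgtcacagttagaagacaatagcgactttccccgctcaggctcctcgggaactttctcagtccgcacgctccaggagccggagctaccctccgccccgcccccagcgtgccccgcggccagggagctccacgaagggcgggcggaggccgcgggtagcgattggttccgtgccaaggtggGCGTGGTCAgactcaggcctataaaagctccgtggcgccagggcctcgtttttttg
Prdx1: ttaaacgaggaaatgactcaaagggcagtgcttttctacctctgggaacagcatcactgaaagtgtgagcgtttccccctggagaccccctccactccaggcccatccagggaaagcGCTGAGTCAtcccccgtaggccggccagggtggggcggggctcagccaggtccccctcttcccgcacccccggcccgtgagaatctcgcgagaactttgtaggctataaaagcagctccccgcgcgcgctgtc
The match began 56 bases before the start in Sod1 and 133 bases before it in Prdx1. Both windows also held a TATA box (TATAAA), at 37 and 29 bases before the start. The letters also occurred in Prdx3, on the opposite strand and 239 bases before the start, and in 14.3% of all genes of the table. The GC box (GGGCGG) was found in 7 of the 8 members, against 35.4% of all genes, and CCAAT in 4 of the 8, against 37.5%. These are matches of letters, and no binding was measured here.

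No difference between mutant and wild-type livers passed for the 10 enzymes, and with 4 pairs the intervals were wide. The mean log2 ratios ran from -0.26 for Prdx3 to 0.44 for Sod3, that is 0.836-fold to 1.36-fold. The mean was above 0 for 8 genes and below 0 for 2, with a median of 0.10. Over the 17686 named genes with 4 values, 9453 had a mean above 0 and the median was 0.041. None of the 10 passed an adjusted p of 0.05 in limma, a linear model with a dye term fitted over 40238 probes, where percent called was 0 and the lowest adjusted p among the members was 0.736. At an unadjusted p under 0.05 there was 1 member, Prdx6, and 6.64% of all probes. The 95% intervals of the 10 fold differences reached down to 0.563-fold, for Prdx3, and up to 1.98-fold, for Sod3, and every other interval lay within these bounds. The exact sign-flip test used below is two-sided, and with 4 pairs it cannot go below p = 0.125.

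**Figure D1:**
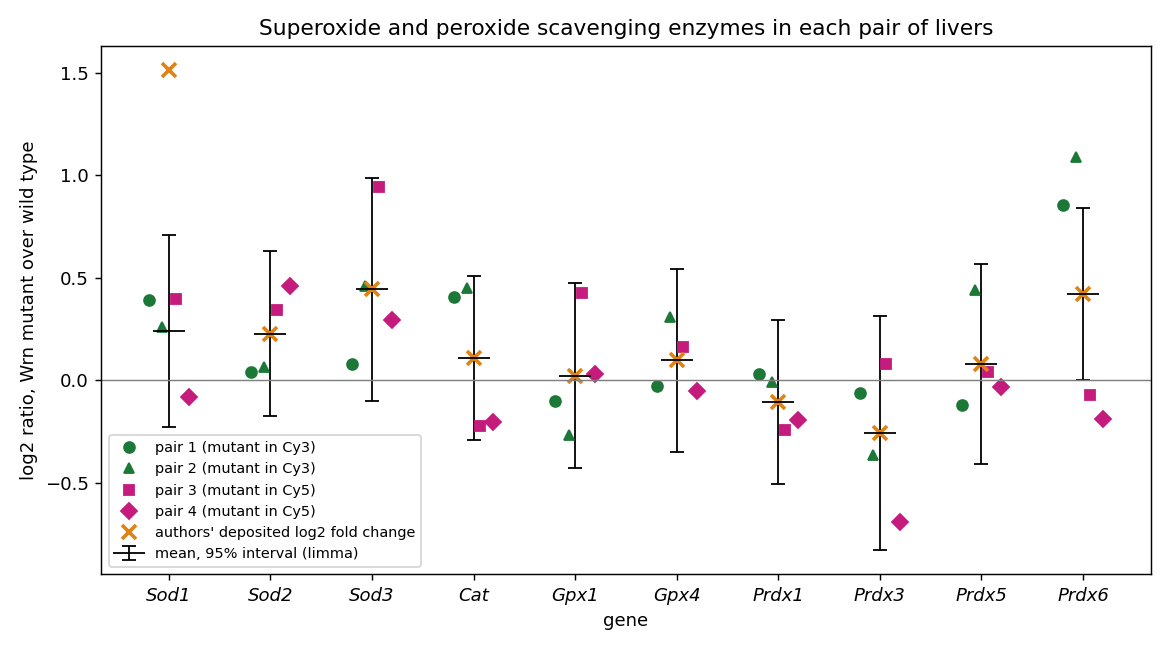
Log2 ratio (vertical axis, mutant over wild type) of each of the 10 genes (horizontal axis) in the 4 pairs, with the mean and the 95% interval from limma as bars and the log2 fold change of the authors' deposited table as crosses. Sod2 and Sod3 lie above 0 in all 4 pairs, Cat and Prdx6 lie above 0 in pairs 1 and 2 and below 0 in pairs 3 and 4, and the cross for Sod1 stands at 1.51, far above its 4 ratios.

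All 3 superoxide dismutases had positive means. Sod3, the extracellular enzyme bound to the matrix through heparan sulfate, had log2 ratios of 0.079, 0.46, 0.94 and 0.29 in pairs 1 to 4. It was higher in the mutant in 4 of 4 pairs, by a small margin in pair 1 and most in pair 3. The mean was 0.44 ± 0.37 (SD, n = 4), or 1.36-fold with a 95% interval of 0.933-fold to 1.98-fold, and it did not pass (limma, adjusted p = 0.736; exact sign-flip p = 0.125). Sod2, the mitochondrial enzyme, had ratios of 0.043, 0.064, 0.34 and 0.46. It too was higher in 4 of 4 pairs, but pairs 1 and 2 lay close to 0 and below both other pairs. Its mean was 0.23 ± 0.21 (SD, n = 4), or 1.17-fold (limma, adjusted p = 0.765; exact sign-flip p = 0.125). Among named genes with 4 values, 10.9% were higher in 4 of 4 pairs, against 2 of the 10 members, and 10.1% were lower in 4 of 4 pairs, against 0 of the 10.

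Sod1, the most widely expressed dismutase, had ratios of 0.39, 0.26, 0.40 and -0.081 on its probe. It was higher in pairs 1 to 3 and slightly lower in pair 4, with a mean of 0.24 ± 0.22 (SD, n = 4), or 1.18-fold (limma, adjusted p = 0.776; exact sign-flip p = 0.25). The authors' deposited table lists Sod1 with a log2 fold change of 1.51, or 2.85-fold, and a p-value of 0.00351. That value lies above each of the 4 ratios of the probe it is listed with, by 1.27 over their mean. For the 9 other members the value listed in the authors' deposited table equals the mean of the 4 ratios within 1e-04. Over all named genes with 4 values, 149 of 17686 (0.842%) differed by more than that, and 19 of them differed by more than Sod1. No source used here says where the listed value comes from. The average log2 intensity in the same row of the authors' deposited table is 5.84, below the table's median of 6.40, whereas the other 9 members lie above 10. Whether that intensity belongs to the Sod1 probe was not tested.

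**Figure D2:**
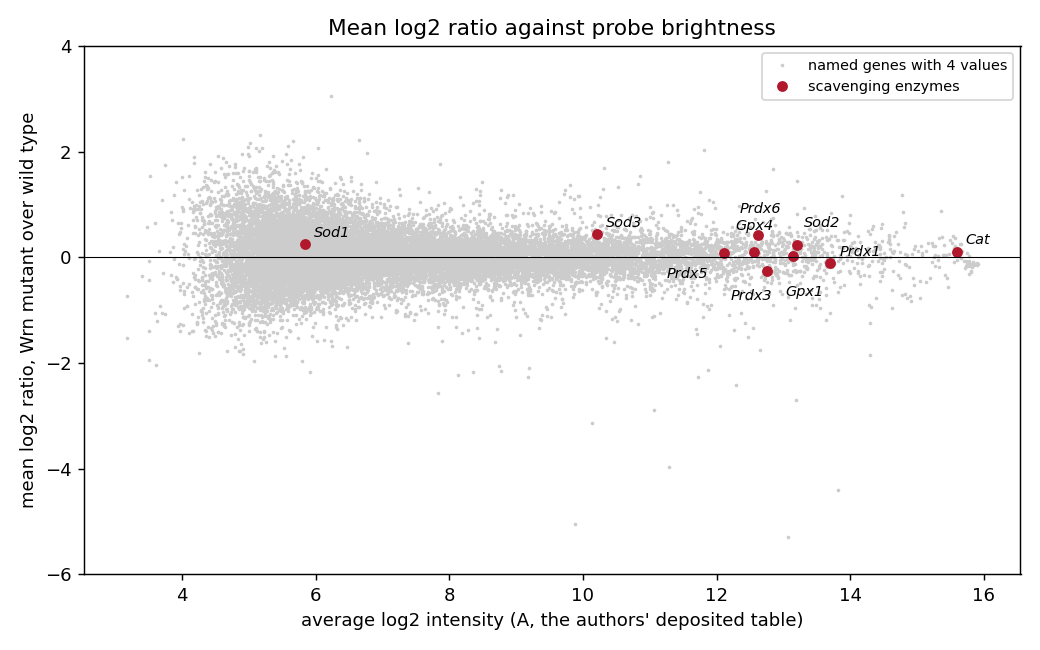
Mean log2 ratio over the 4 pairs (vertical axis, mutant over wild type) against the average log2 intensity of the authors' deposited table (horizontal axis), for named genes with 4 values in grey and the 10 enzymes in red. Cat is the brightest member at 15.6 and Sod1 the dimmest at 5.84, and the 10 means lie between -0.26 and 0.44.

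Cat, the peroxisomal catalase, had the brightest probe of the 10, with an average log2 intensity of 15.6 and 99.8% of the table's probes below it. Its ratios were 0.41 and 0.45 in pairs 1 and 2 and -0.22 and -0.20 in pairs 3 and 4. The pairs of one dye orientation thus matched each other closely and the orientations took opposite signs. The mean was 0.11 ± 0.37 (SD, n = 4), or 1.08-fold, with a 95% interval of 0.818-fold to 1.42-fold (limma, adjusted p = 0.862).

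The glutathione peroxidases had means near 0. Gpx1, the cytosolic and mitochondrial enzyme that reduces hydrogen peroxide, had ratios of -0.099, -0.27, 0.42 and 0.030. The first 2 pairs were lower and the last 2 higher, so that Gpx1 had the order opposite to that of Cat. Its mean of 0.022 ± 0.29 (SD, n = 4) was the closest to 0 of the 10 (limma, adjusted p = 0.977). Gpx4, which reduces phospholipid hydroperoxides within membranes and restrains ferroptosis, had ratios of -0.030, 0.31, 0.17 and -0.052. No orientation stood apart in it, and the mean was 0.098 ± 0.17 (SD, n = 4), or 1.07-fold with a 95% interval of 0.786-fold to 1.46-fold (limma, adjusted p = 0.888).

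The peroxiredoxins held both ends of the range apart from Sod3. Prdx6, a peroxiredoxin with a single active cysteine and a phospholipase activity, had ratios of 0.85 and 1.09 in pairs 1 and 2, against -0.071 and -0.19 in pairs 3 and 4. It was well above 0 in both pairs with the mutant in Cy3 and slightly below 0 in both with the mutant in Cy5. The mean was 0.42 ± 0.64 (SD, n = 4), or 1.34-fold with a 95% interval of 1.00-fold to 1.79-fold, at an unadjusted p of 0.0491 and an adjusted p of 0.736 in limma. Without the dye term, which counts the gap between orientations as spread, the unadjusted p was 0.197 and the adjusted p 0.832. The exact sign-flip test, two-sided, gave p = 0.5.

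Prdx3, the mitochondrial peroxiredoxin, had the lowest mean of the 10, with ratios of -0.063, -0.36, 0.082 and -0.69. It was lower in 3 of 4 pairs, mostly in pairs 2 and 4, and averaged -0.26 ± 0.34 (SD, n = 4), or 0.836-fold (limma, adjusted p = 0.792). Without pair 4 its limma estimate was -0.065. That fit keeps the dye term and weighs both orientations equally, so pair 3 counts as much as pairs 1 and 2 together. Pair 4 was at once the lowest for Prdx3 and the highest, at 0.46, for Sod2, which works in the same compartment. Prdx1, the abundant cytosolic peroxiredoxin whose window is printed above, had ratios of 0.029, -0.0099, -0.24 and -0.19. Its spread was the smallest of the 10, and it averaged -0.10 ± 0.13 (SD, n = 4), or 0.931-fold with a 95% interval of 0.706-fold to 1.23-fold (limma, adjusted p = 0.866). Prdx5, found in mitochondria, peroxisomes and cytosol, had ratios of -0.12, 0.44, 0.040 and -0.033. Pair 2 was the farthest from 0, and the mean was 0.081 ± 0.25 (SD, n = 4; limma, adjusted p = 0.917).

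Ordered by mean, the 10 genes ran Sod3, Prdx6, Sod1, Sod2, Cat, Gpx4, Prdx5, Gpx1, Prdx1 and Prdx3. Neighbours in this order differed by less than the larger of their SDs over pairs. In pairs 1, 2 and 3, 6, 7 and 7 of the 10 were higher in the mutant, whereas 3 of the 10 were higher in pair 4. The median over the 10 was 0.036, 0.29, 0.12 and -0.067 in pairs 1 to 4. The standard error from limma ran from 0.143 for Cat to 0.205 for Prdx3. Its median over the 10 was 0.161, against 0.160 over named genes at least as bright as Sod3 and 0.213 over all probes tested. The dye term takes the gap between orientations out of these errors, as in Cat, whose SD over pairs was 0.37.

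The dye orientation is a technical split of the arrays that also divides the animals, so labelling and animals cannot be told apart. In 5 of the 10 members the orientations did not overlap, against 38.9% of named genes with 4 values. In Prdx6, Cat and Prdx1 pairs 1 and 2 lay above pairs 3 and 4, and in Sod2 and Gpx1 they lay below them. Prdx6 had the widest gap, with a mean of 0.97 in pairs 1 and 2 and -0.13 in pairs 3 and 4, a gap of 1.10 that exceeded that of 84.3% of named genes. The gap of Cat was 0.64, larger than in 67.1% of named genes. The shares for the gaps are over genes of all intensities, and gap shares among genes of like brightness were not computed. Orientations did not overlap in 40.7% of named genes brighter than the median. Among named genes at least as bright as Sod3, they did not overlap in 943 of 2312. The median SD over pairs was 0.24 over named genes at least as bright as Sod3, against 0.48 over all named genes with 4 values. Within each orientation, Sod3 averaged 0.27 and 0.62, Sod2 0.053 and 0.40, Sod1 0.33 and 0.16, and Prdx3 -0.21 and -0.30, each with 1 sign in both. The hepatocyte marker list had medians of 0.19, 0.32, -0.14 and -0.033 in pairs 1 to 4, the same signs as Cat and Prdx6, with 7 of its 13 tested genes not overlapping between orientations. Its part in the values of Cat and Prdx6 was not tested.

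**Figure D3:**
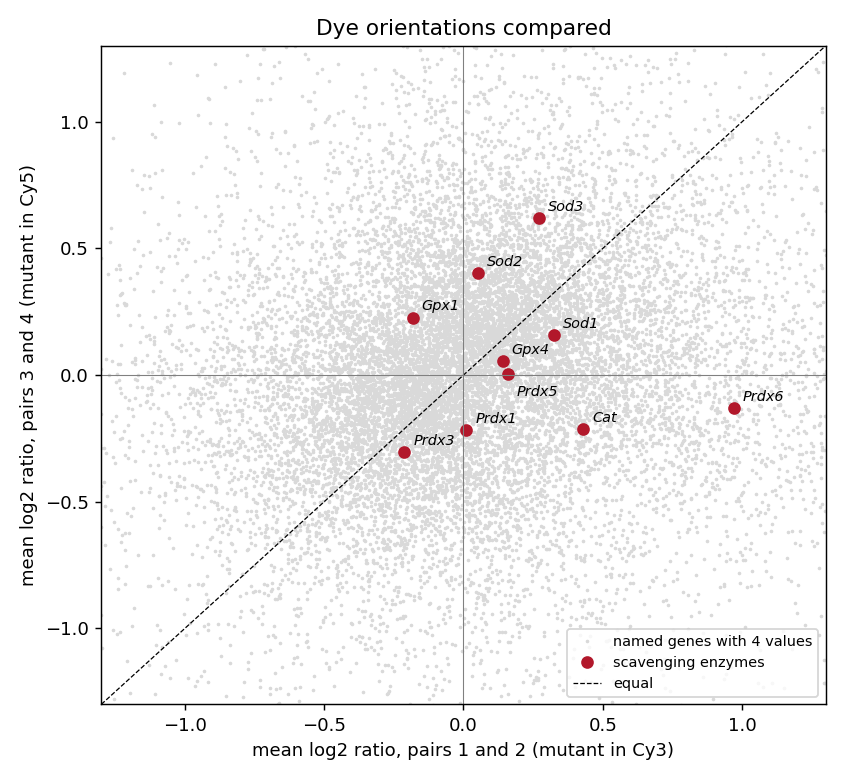
Mean log2 ratio in pairs 1 and 2, with the mutant in Cy3 (horizontal axis), against the mean in pairs 3 and 4, with the mutant in Cy5 (vertical axis), for named genes with 4 values in grey and the 10 enzymes in red; the axes end at 1.3, which leaves 1867 of 17686 genes outside. Prdx6 and Cat lie to the right of 0 and below it, Gpx1 to the left and above, and Sod1, Sod2 and Sod3 in the upper right, where both means are positive.

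Lists of genes around these enzymes were described in the same way, by counts and medians, with no set test. None of their genes passed the adjusted p of 0.05. The counts of signs below stand beside 9453 positive and 8233 negative means over the 17686 named genes with 4 values. Among the other peroxiredoxins and glutathione peroxidases, 6 of 8 had negative means and the median was -0.20. Prdx4, the peroxiredoxin of the endoplasmic reticulum, had ratios of -0.54, -0.73, -0.063 and -0.43. It was lower in 4 of 4 pairs, with a mean of -0.44 ± 0.28 (SD, n = 4; limma, unadjusted p = 0.0517, adjusted p = 0.736). Gpx3, the secreted plasma enzyme, averaged -0.42 ± 0.41 and was lower in 3 of 4 pairs (limma, unadjusted p = 0.0562). Prdx2, abundant in red cells and singled out after its value was seen, is a further gene for which the table and the arrays differ. It stands at 0.46 in the authors' deposited table, and its 4 ratios, 0.020, -0.70, 0.077 and 0.42, average -0.046.

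Genes that recycle thioredoxin and glutathione were split, with 12 of 22 means positive and a median of 0.065. At an unadjusted p under 0.05 there was 1 higher gene and 2 lower, where 3.45% of all probes were higher and 3.19% lower at that p. Txnip, which binds and inhibits thioredoxin, had ratios of 0.79, 1.09, 0.83 and 1.71. It was higher in every pair, averaging 1.10 ± 0.42 (SD, n = 4), or 2.15-fold (limma, unadjusted p = 0.00717, adjusted p = 0.736). Gsr, glutathione reductase, was lower in 4 of 4 pairs at -0.53 ± 0.30 (limma, unadjusted p = 0.0384). Nnt, the mitochondrial transhydrogenase that supplies NADPH, was also lower in 4 of 4 at -0.53 ± 0.39 (limma, unadjusted p = 0.0271). The lowest mean of the list was that of G6pdx, the first enzyme of the pentose phosphate pathway, singled out after its value was seen. Its ratios were -1.01, -1.81, -0.57 and -4.82, lower in every pair and by far the most in pair 4, with a mean of -2.05 ± 1.92 (SD, n = 4; limma, unadjusted p = 0.0585).

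Selenium genes bear on Gpx1 and Gpx4, which need selenocysteine. Of 14 genes for selenoproteins, their synthesis and selenium transport, 11 had negative means, 4 of these in every pair with a value, and the median was -0.21. Over named genes with 4 values, 8233 of 17686 had negative means and 10.1% were lower in 4 of 4 pairs. The list genes lower in every pair were selenoproteins or a transport receptor, and none was a synthesis gene. Dio1, the hepatic deiodinase and itself a selenoprotein, had ratios of -0.31, -0.32, -1.42 and -0.69. It was lower in every pair, at -0.68 ± 0.52 (SD, n = 4; limma, unadjusted p = 0.0243, adjusted p = 0.736). Of 15 genes for copper, manganese and heme supply, the cofactors of the dismutases and of catalase, 12 had positive estimates with a median of 0.19, and 0 had an unadjusted p under 0.05 in limma. The smallest p belonged to Alas1, the first enzyme of heme synthesis, at 0.79 ± 0.98 with 3 of 4 pairs higher, and to Atp7a, a copper exporter, at 0.34 ± 0.28 with 4 of 4 higher.

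Genes for sources of superoxide and peroxide had positive means in 20 of 30 cases, with a median of 0.30. Among named genes with 4 values, 9453 of 17686 means were positive. At an unadjusted p under 0.05 there were 3 of 30 genes higher and 0 lower, beside 3.45% of all probes higher and 3.19% lower. Rac2, the small GTPase of the phagocyte NADPH oxidase, had ratios of 0.81, 1.24, 0.63 and 0.87. It was higher in every pair with little spread, at 0.89 ± 0.25 (SD, n = 4), or 1.85-fold (limma, unadjusted p = 0.00616, adjusted p = 0.736). Ncf1, a cytosolic organiser of the same oxidase, was higher in 4 of 4 pairs at 0.72 ± 0.42 (limma, unadjusted p = 0.0291). The third was Cybb, its catalytic subunit, which is also a macrophage marker and was singled out after its value was seen, at 1.08 ± 0.85 with 3 of 4 pairs higher (limma, unadjusted p = 0.0109). Kupffer cell and macrophage markers were also on the higher side. Of their 17 genes, 17 had positive estimates with a median of 0.63, and the pair medians were 0.72, 1.00, -0.21 and 0.98. Without pair 4 the median of the limma estimates, with both dye orientations weighed equally, was 0.37. In pair 3, where the marker median was below 0, Cybb stood at -0.080, Rac2 at 0.63 and Ncf1 at 1.26. The part of macrophage RNA in the oxidase values was not tested.

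Peroxisome assembly and import genes, which make the compartment that holds catalase, had positive means in 16 of 23 cases and a median of 0.11, close to that of the 10 enzymes. Abcd2, a peroxisomal transporter of fatty acyl-CoA, was higher in 4 of 4 pairs at 1.14 ± 0.82 (SD, n = 4; limma, unadjusted p = 0.0276, adjusted p = 0.736). Among the markers of other cells, medians were 0.50 over 10 erythroid genes, 0.36 over 14 sinusoidal endothelial genes and 0.22 over 9 neutrophil genes, against 0.051 over 13 hepatocyte genes. Of the 10 erythroid probes, 5 exceeded the table's median intensity. Among these were the globins Hba-a1 and Hba-a2, whose means of 0.46 and 0.36 lay below the erythroid median. Estimates were positive for 9 of the 10 erythroid genes, and the other, Tfrc, was lower in 4 of 4 pairs at -0.63 ± 0.28. In the neutrophil list, 2 of the 9 probes exceeded the table's median intensity.

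**Figure D4:**
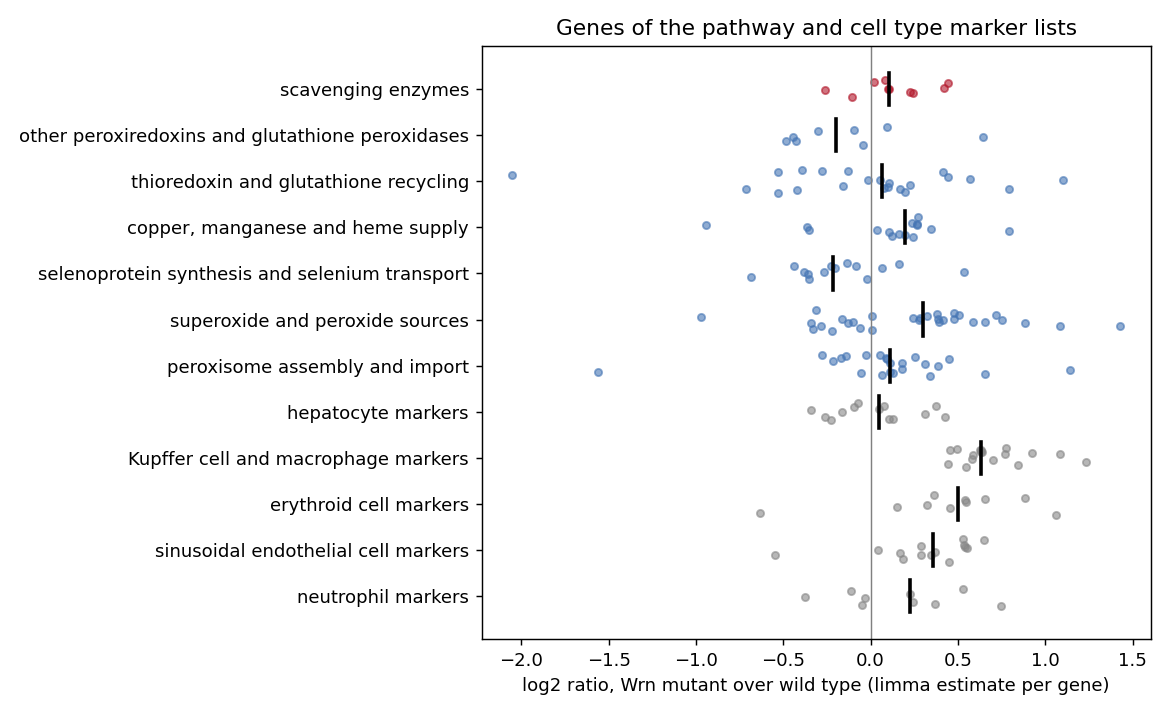
Log2 ratio of each gene from limma (horizontal axis, mutant over wild type) in the 10 enzymes, the 6 pathway lists and the 5 cell type marker lists (rows), with the median of each list as a black bar. The 10 enzymes lie between -0.26 and 0.44, while the recycling genes reach -2.05 for G6pdx and 1.10 for Txnip, and all 17 macrophage markers lie above 0.

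Likeness to Sod3, the member with the largest mean, was measured as the mean absolute difference of the 4 log2 ratios over 107 genes of the pathway lists. The nearest were Aox1, an aldehyde oxidase, at 0.130, Gclc, the catalytic subunit of glutamate-cysteine ligase, at 0.192, and Pipox, a peroxisomal oxidase of pipecolic acid, at 0.210. Their means were 0.41, 0.41 and 0.39, and none passed the adjusted p of 0.05 in limma.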

How the data were processed

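Each probe has 1 log2 ratio per array as deposited. The gene table, per the file headers, gives the authors' log2 fold change, their p-value and A, the log2 intensity averaged over arrays. Limma is the tool named in the submitters' processing notes. No source used here gives its version, how background and normalization were handled, or how 1 probe per gene was picked. The fold changes and p-values of the table entered no test.

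Gene symbols were joined to the arrays by probe. Probes with at least 3 values were fitted with limma 3.58.1 in R 4.3.3 (lmFit and eBayes) on an intercept and a dye term, with 2 residual degrees of freedom and Benjamini-Hochberg adjustment over 40238 probes at 0.05. The procedure was tested on simulated data. The ratio within an array is the unit, so n is 4 pairs. The number of arrays limits the precision. Genes of the lists were matched by accession first and then by symbol (176 of 182 found). RefSeq tables of GRCm38.p6 gave names and promoter windows.

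The members and lists were chosen with earlier results of these data known. Every member is named. From each pathway list, up to 5 genes with an unadjusted p under 0.05 and 1 sign in all pairs are named, otherwise the 2 with the smallest p. Prdx2, Cybb and G6pdx fall outside this rule and are marked as such. Alternatives covered the dye term, centring, scaling, the prior, array weights, the probes tested, the direction of swapped arrays, the threshold and leaving out each pair.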

Additional observations from a re-analysis of the deposited data

Results flagged for a closer look

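Of 35 values and medians examined, 2 had a pair far from the other 3, where chance gives about 1.75. Pair 1 had values for 37627 probes, against 39979 to 40104 in the other pairs. The median of the selenoprotein and selenium genes was -0.25 in pair 3, against -0.091 to -0.085 in the other pairs.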

How the results depend on the processing

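None of the enzymes tested passed in any of the 15 refits or at an adjusted p of 0.10 (9 of the 10 in the refit on brighter probes, which leaves out Sod1), and their adjusted p ran from 0.2 to 0.994. With a prior following probe intensity, 42 of 20379 named probes passed, and 1 of 10414 among named probes brighter than the median, against 0 in the other fits. With the arrays carrying the mutant in Cy5 turned, Sod2, Sod3 and Gpx1 stood at -0.17, -0.17 and -0.20, and Prdx1 and Prdx3 at 0.11 and 0.046. In that fit list medians were -0.10 for cofactor supply, 0.098 for selenium genes, 0.071 for peroxide sources, -0.11 for peroxisome assembly and 0.041 for endothelial markers. The authors' deposited fold change put Sod1 at 1.51. The values without 1 pair are limma estimates with the dye term, in which both orientations weigh equally. The pair left alone in its orientation thus counts as much as the other 2 together, and the values are not plain means. Without 1 pair, Gpx1 ran from -0.076 to 0.12, Prdx5 from -0.059 to 0.22, and Prdx3 from -0.45 to -0.065. Sod1 ran from 0.12 to 0.36, Gpx4 from 0.013 to 0.18, and Sod3 from 0.28 without pair 3 to 0.61. The list medians ran from -0.085 to 0.12 for thioredoxin and glutathione recycling, -0.34 to -0.17 for selenium genes, 0.14 to 0.33 for peroxide sources, 0.37 to 0.91 for macrophage markers and -0.18 to 0.24 for neutrophil markers. The neutrophil median was 0.56 over the 2 probes brighter than the median. The causes were not tested. Every fit is paired, since each ratio is taken within a pair.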
